A study of Mus musculus with 4 samples.

Results

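The smooth muscle contractile genes described here are 10 genes of the mouse actin and myosin machinery and its control, namely Acta2, Actg2, Tagln, Cnn1, Cnn2, Tpm1, Tpm2, Myl9, Myh11 and Myocd. They were chosen by gene symbol, and all 10 are among the 19891 genes counted at least once, out of 24421 genes in the count tables. RNA of R1 cells, an established line of mouse embryonic stem cells (ESCs), was sequenced in 4 libraries, 2 from separate cultures in the Undiff state and 2 in the Day4 state. Undiff cells are ESCs kept with leukaemia inhibitory factor (LIF) according to the methods, while the labels give embryoid bodies as the tissue of every library. Day4 cells were aggregated into embryoid bodies, grown for 4 days without LIF and then given retinoic acid (RA) for 4 days, at 2 µM in the methods and at 2 mM in a treatment label. The states therefore differ in RA and in time in culture and, as the methods describe Undiff, also in LIF and aggregation. These cannot be told apart here, and all libraries come from 1 cell line.

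Smooth muscle contracts when phosphorylated myosin pulls on filaments of smooth muscle actin. Thin filaments are built from actin and tropomyosin and carry calponin and transgelin, while the thick filament holds a smooth muscle heavy chain and a regulatory light chain. Many of these genes are switched on by serum response factor (SRF), which binds a short sequence called the CArG box and works with coactivators such as myocardin. Several of them are also used by stress fibres of cells that are not muscle, so that Acta2 and Tagln are wider in expression than Myh11, Cnn1 and Myocd.

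The promoter sequences show where the members with a promoter entry carry a CArG box, the DNA element that SRF binds. RefSeq (GRCm38.p6) held a window from 250 bases before to 50 bases after the start for 6 of the 10 members, Acta2, Myl9, Cnn1, Cnn2, Tpm1 and Tpm2, and none was used for Actg2, Tagln, Myh11 and Myocd. The box was searched on both strands, either exactly or with at most 1 G or C among its inner bases. Distances are from the start used for that window, which differs from the start of the GENCODE gene span given further below. The GENCODE span of Acta2, on the minus strand, reaches 34255590, so that both of its boxes lie inside that span. Each line below is 30 bases, 5′ to 3′ on the strand of the gene, with the matched 10 bases in capitals.
Acta2, chr19:34255438-34255467 (−), 84 bases before the start: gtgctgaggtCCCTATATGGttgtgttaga
Acta2, chr19:34255388-34255417 (−), 34 bases before the start: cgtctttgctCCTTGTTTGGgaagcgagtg
Myl9, chr2:156775293-156775322 (+), 161 bases before the start: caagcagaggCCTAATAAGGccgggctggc
Myl9, chr2:156775355-156775384 (+), 99 bases before the start: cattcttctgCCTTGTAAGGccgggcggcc
Cnn2, chr10:79988534-79988563 (+), 56 bases before the start: cgcttccacgCCTTATAAGGacatttgctc
The box farthest from the start in Myl9 and the box of Cnn2 were exact, a match that 1.63% of 32851 promoters of this length held. The other 3 had 1 inner G or C, and 9.98% of promoters held a match of either kind. Cnn1, Tpm1 and Tpm2 had no match in this window. The sequence CATTCC, the MCAT motif bound by TEAD factors, was found on either strand of Acta2, 146 bases before the start, and of Tpm1, 56 bases before it, and 14.7% of promoters held it. A match of letters is a description, and binding was not measured in these libraries.

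Total counts on genes ran from 32099074 to 47730944 per library, so that a floor of 3 counts stood at 0.0629 to 0.0935 CPM (counts scaled to the total of each library). Values below are normalized counts, which are counts of fragments scaled by TMM factors to a common library size of 37.4 M. Differences between the states were tested with edgeR's quasi-likelihood method, with Benjamini-Hochberg adjustment over all 19891 genes, and every adjusted p below is from that test unless DESeq2 is named. A DEG had an adjusted p of at most 0.05, a log2 fold change of at least 1 in size and on average 5 or more normalized counts. With 2 libraries against 2, an exact permutation test cannot go below 0.33, and the adjusted p-values rest on the spread that edgeR shares over genes.

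Of the 10 genes, 4 rose between Undiff and Day4 as DEGs, both smooth muscle actins (Acta2 and Actg2), the regulatory light chain Myl9 and the coactivator Myocd. No member was a DEG in the other direction, and 6 were not DEGs. Among all genes tested, 22.2% were DEGs that rose and 20.6% were DEGs that fell, 42.8% in either direction. An adjusted p of at most 0.05 was reached by 6 members, the same 4 with Tpm1 and Cnn1, all of them higher in Day4, against 75.6% of all genes in either direction and 37.9% in that direction. Both Day4 libraries lay above both Undiff libraries for 7 members, against 42.7% of all genes, and for the other 3, Tagln, Tpm2 and Myh11, the states overlapped. Over all genes, 85.4% did not overlap in either direction. All 10 passed the minimum mean count. The median log2 fold change of the members was 0.60, against -0.03 over all genes tested and 0.03 over those with 5 or more normalized counts on average.

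**Figure D1:**
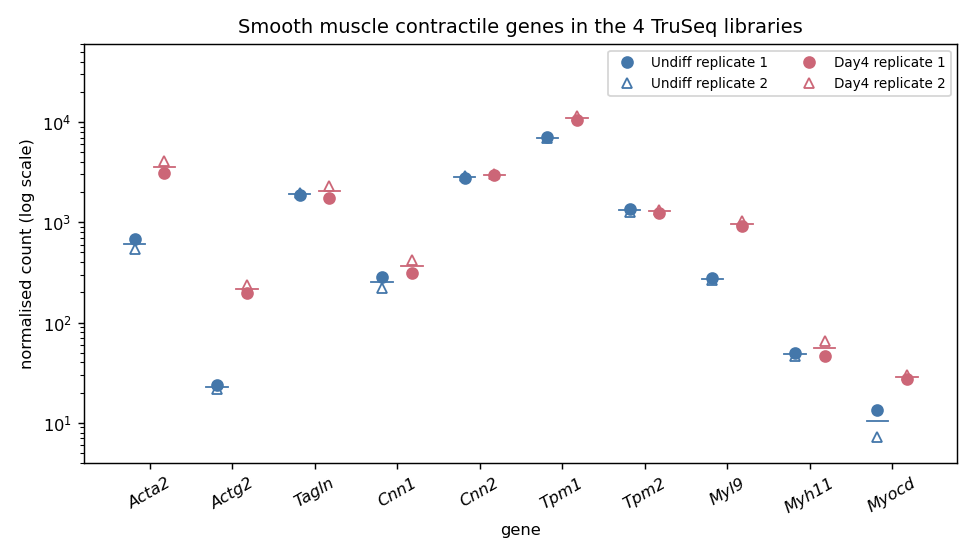
Normalized counts of the 10 genes on a log axis in each of the 4 libraries, with circles for replicate 1, triangles for replicate 2 and a bar at the mean of each state. Acta2, Actg2 and Myl9 stand far apart between the states, from means of 610, 22.8 and 272 in Undiff to 3580, 218 and 972 in Day4, while the points of Tagln, Tpm2 and Myh11 overlap.

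Acta2 encodes smooth muscle alpha-actin and lies at chr19:34241090-34255590 on the minus strand (GRCm38). It had 682 and 538 normalized counts in Undiff and 3093 and 4068 in Day4, with replicate 1 first here and below. Both Day4 libraries were above both Undiff libraries, and the gap between the states was larger than the spread within either. The mean went from 610 ± 101 (SD, n = 2) to 3580 ± 689 (SD, n = 2), a log2 fold change of 2.55 (SE 0.13, 95% interval 2.28 to 2.82, adjusted p = 3.5e-10). This stood at percentile 88.0 of the log2 fold changes of all genes tested.

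Actg2 encodes smooth muscle gamma-actin, the actin of gut and other visceral smooth muscle, at chr6:83512905-83536265 on the minus strand. Its normalized counts were 24.0 and 21.5 in Undiff and 197 and 239.5 in Day4. The states did not overlap, and this gene had the largest fold change of the 10. Its mean went from 22.8 ± 1.72 to 218 ± 29.8 (SD, n = 2 each), a 9.63-fold rise with a log2 fold change of 3.27 (SE 0.21, 95% interval 2.81 to 3.72, adjusted p = 6.2e-09).

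Despite this rise, the smooth muscle actins stayed a small part of all actin. Per kilobase of exon, Acta2 took 0.646% and 0.486% of the counts of the 6 actin genes in Undiff and 3.24% and 4.42% in Day4. Actg2 took 0.0339% and 0.0289% in Undiff and 0.308% and 0.388% in Day4. The cytoplasmic actins Actb and Actg1, which every cell uses, made up nearly all of the rest. Actb went from a mean of 58.3% to 42.4% and Actg1 from 41.0% to 53.4%. The shares of Acta2 and Actg2 did not overlap between the states (exact permutation test, two-sided p = 0.33 for each, the smallest possible with 2 against 2). Fragments that map to several places were left out of the counts, and 70.1% of the 100-base windows of Actg1 were found in no other gene, so that its level, and with it the sum of the family, is uncertain. Further family genes of less certain level, with 76.0% to 90.8% of their windows unique, were Cnn3, Tpm3, Tpm4, Myl12a and Myl12b. Of these, Cnn3 shares 332 exon bases with the overlapping gene Gm42928, Tpm4 134 with Gm26586 and Myl12a 462 with a further gene model named Myl12b. Such a further model also shares 739 exon bases with Myl12b, and windows common to both were counted as not unique. A fragment from such shared bases need not map to several places.

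The striated muscle actins showed that the actins did not all move one way. Acta1, the skeletal muscle actin, fell from 93.8 and 113.7 normalized counts in Undiff to 5.22 and 6.91 in Day4, a log2 fold change of -4.03 (adjusted p = 4.4e-08). Actc1, the cardiac actin, had 14.6 and 4.79 in Undiff and 24.0 and 32.3 in Day4, a log2 fold change of 1.51 (adjusted p = 0.0069). Its call was lost in 4 of the alternative settings, among them both DESeq2 fits. Actb fell by 0.67 on the log2 scale (adjusted p = 2.6e-09) and Actg1 rose by 0.17 (adjusted p = 0.0021), neither far enough to be a DEG.

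**Figure D2:**
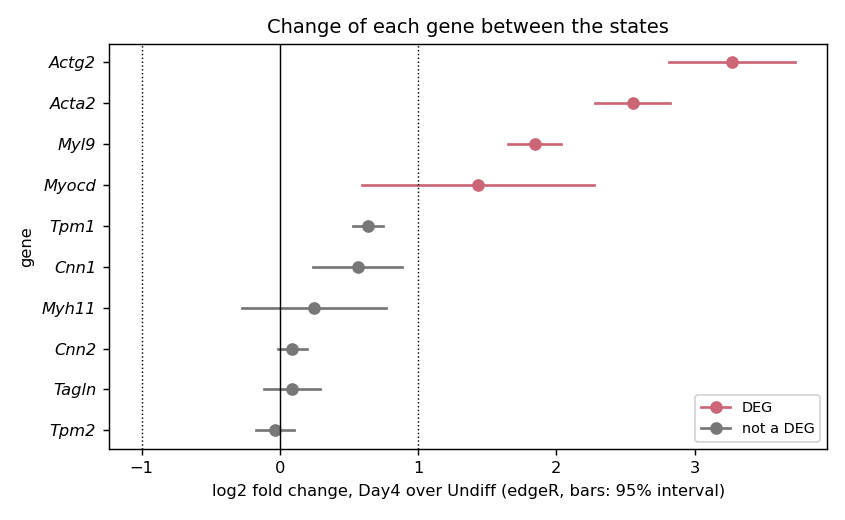
Log2 fold change of Day4 over Undiff for each of the 10 genes, with the 95% interval from edgeR as a bar, dotted lines at -1 and 1, and DEGs in red. Actg2, Acta2, Myl9 and Myocd lie above 1, from 3.27 to 1.43, and the interval of Myocd is the widest.

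None of the 5 proteins that bind along actin filaments was a DEG, against 42.8% of all genes tested in either direction. Their median log2 fold change was 0.09, and Tpm1 and Cnn1 reached an adjusted p of at most 0.05. Tagln encodes transgelin (SM22-alpha), an early marker of smooth muscle, at chr9:45929619-45936058 on the minus strand. It had 1881 and 1968 normalized counts in Undiff and 1764 and 2296 in Day4. The Undiff values lay between the Day4 values. The log2 fold change was 0.09 (SE 0.09, 95% interval -0.12 to 0.29, adjusted p = 0.40), so that a change as large as that of Acta2 lay outside its interval. Without Day4 replicate 1 it was 0.25 (adjusted p = 0.0052), and without Day4 replicate 2 it was -0.16 (adjusted p = 0.089).

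Tagln is also the member that shares most sequence with other annotated genes. In GENCODE vM21 its exons share 94 bases with Pcsk7 and 877 with the antisense gene Gm48529, both on the plus strand, and 51.7% of the 100-base windows of its transcripts were found in no other gene, against 100% for each of the other 9 members. The methods name the Direct RNA libraries as those counted by strand, and for exons they state that TruSeq was counted without it, but the setting used for TruSeq on genes is not spelled out. Without strand the reads of such pairs cannot be told apart.

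Within the transgelins Tagln took a larger share in Day4, where its paralogue Tagln2 had fallen. Tagln2, a form found widely outside muscle, had 6078 and 5535 normalized counts in Undiff and 2557 and 2486 in Day4, a log2 fold change of -1.20 (adjusted p = 1.2e-10). Tagln made up 23.2% and 25.6% of the family per kilobase in Undiff and 39.2% and 46.3% in Day4, while its own count overlapped between the states. Tagln3, expressed in neurons, fell by 0.42 on the log2 scale (adjusted p = 0.0028) and was not a DEG.

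Cnn1 encodes calponin 1, a late marker of smooth muscle differentiation that holds back myosin, at chr9:22099216-22109630 on the plus strand. It had 283 and 221 normalized counts in Undiff and 314 and 425 in Day4. The states did not overlap, but the gap between Undiff replicate 1 and Day4 replicate 1 was smaller than the spread within either state. Its log2 fold change was 0.56 (SE 0.15, 95% interval 0.24 to 0.89, adjusted p = 0.0037), below the size of a DEG, and it was 0.28 (adjusted p = 0.12) without Day4 replicate 2.

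Cnn2, a calponin that is also found in cells other than muscle, lies at chr10:79988584-79996062 on the plus strand. It had 2767 and 2862 normalized counts in Undiff and 2947 and 3037 in Day4, a log2 fold change of 0.09 (95% interval -0.02 to 0.19, adjusted p = 0.11). The Day4 libraries were the higher ones by a margin of the size of the spread within a state. Within its family Cnn2 went from 15.8% ± 0.439 to 12.3% ± 0.0591 (SD, n = 2 each), as Cnn3, the non-muscle calponin, rose by 0.51 on the log2 scale (adjusted p = 2.8e-08). Cnn1 stayed near 1.38% and 1.48% of the family in Undiff and Day4, with overlapping libraries (exact permutation test, two-sided p = 0.667).

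Tpm1 encodes alpha-tropomyosin, at chr9:67022590-67049406 on the minus strand, and was the member with the most counts. It had 7039 and 6971 normalized counts in Undiff and 10358 and 11446 in Day4. All Day4 values were higher, and the log2 fold change of 0.64 (SE 0.05, 95% interval 0.53 to 0.75, adjusted p = 4.5e-08) was below that of a DEG. Tpm2, beta-tropomyosin, at chr4:43514711-43523765 on the minus strand, had 1371 and 1268 in Undiff and 1239.9 and 1336 in Day4. The states overlapped, at a log2 fold change of -0.03 (95% interval -0.17 to 0.11, adjusted p = 0.64). Tropomyosin genes give muscle and non-muscle proteins by alternative splicing, and counts per gene do not separate these forms.

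The larger shift among tropomyosins lay in Tpm4 and Tpm3, which are not among the members. Tpm4 rose from 6333 and 5961 normalized counts to 17247 and 17751, a log2 fold change of 1.51 (adjusted p = 1.7e-12), and its share of the family went from a mean of 29.0% to 56.7%. Tpm3 fell by 0.55 on the log2 scale (adjusted p = 3.2e-08) and its share went from 50.8% to 23.8%. The share of Tpm1 went from 14.7% ± 0.0345 to 15.7% ± 0.576, a change of 1.02 percentage points that was 0.613 without Day4 replicate 2 and 4.08 when counts were not divided by length. The share of Tpm2 went from 5.56% ± 0.255 to 3.73% ± 0.0699 (SD, n = 2 each).

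**Figure D3:**
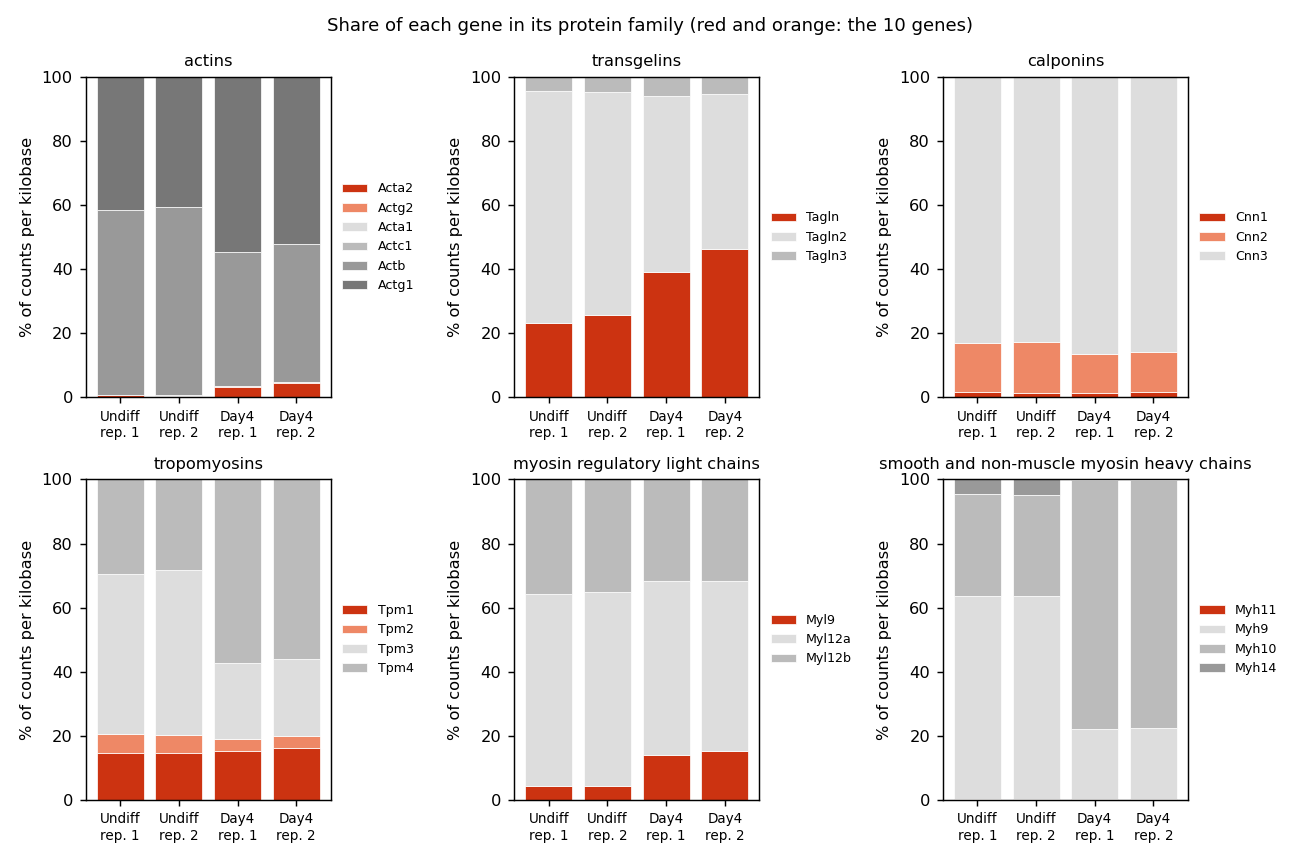
Share of each gene in the counts per kilobase of its protein family, in percent, as stacked bars for the 4 libraries, with the smooth muscle members in red and orange and the other family genes in grey. Myl9 goes from 4.28% to 14.7% of the regulatory light chains and Tagln from 24.4% to 42.7% of the transgelins, while Myh11 stays at about 0.2% of the heavy chains, too thin to be seen.

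Myl9 and Myh11 are the light and the heavy chain of smooth muscle myosin, and they moved differently. Myl9, whose phosphorylation starts contraction, lies at chr2:156775420-156781658 on the plus strand. It had 276 and 268 normalized counts in Undiff and 916 and 1029 in Day4. The states were far apart relative to their spread, with means of 272 ± 5.75 and 972 ± 79.7 (SD, n = 2 each), a 3.58-fold rise and a log2 fold change of 1.84 (SE 0.09, 95% interval 1.65 to 2.03, adjusted p = 2.8e-10). Its share of the 3 regulatory light chain genes went from 4.36% and 4.20% to 14.1% and 15.3%. The non-muscle chains Myl12a and Myl12b had log2 fold changes of -0.11 and -0.10, and neither was a DEG.

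Myh11, the smooth muscle myosin heavy chain and the marker held to be most specific for mature smooth muscle, lies at chr16:14194535-14291372 on the minus strand. It had 50.0 and 46.7 normalized counts in Undiff and 46.0 and 66.0 in Day4. The Undiff values lay between those of Day4, and the log2 fold change was 0.24 (SE 0.24, 95% interval -0.28 to 0.77, adjusted p = 0.36), an interval that leaves out a rise of the size of Myl9. Myh11 made up 0.210% ± 0.0147 (SD, n = 2) of the 4 heavy chain genes in Undiff and 0.200% ± 0.0402 (SD, n = 2) in Day4 (exact permutation test, two-sided p = 1).

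The non-muscle heavy chains exchanged places. Myh10 (non-muscle myosin IIB) rose from 9441 and 9671 normalized counts to 27330 and 29287 (log2 fold change 1.57, adjusted p = 1.1e-12) and became a mean of 77.6% of the family, from 31.7%. Myh9 (IIA) fell from 16207 and 16685 to 6609 and 7258 (log2 fold change -1.24, adjusted p = 2.9e-11), from 63.5% to 22.1%. Myh14 (IIC) fell from 1026 and 1110 to 36.6 and 41.5 (log2 fold change -4.76, adjusted p = 3.6e-13).

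Myocd encodes myocardin, a coactivator of SRF in cardiac and smooth muscle, at chr11:65176561-65269989 on the minus strand. It was counted 13 and 6 times in Undiff and 26 and 39 times in Day4, the lowest counts of the 10 genes. These are 13.5 and 7.18 normalized counts in Undiff and 27.2 and 29.9 in Day4, so that both Day4 libraries were higher. The log2 fold change was 1.43 (SE 0.39, 95% interval 0.59 to 2.27, adjusted p = 0.0043). DESeq2 gave an adjusted p of 0.069 with shrinkage and 0.070 without, and the gene was then not a DEG.

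Levels can be compared between genes per kilobase of exon, as CPM per kilobase, with TMM factors in the library totals. In Undiff the order of the means was Tpm1 (39.1), Tagln (32.2), Cnn2 (30.6), Tpm2 (14.8), Acta2 (8.01), Myl9 (6.44), Cnn1 (2.67), Actg2 (0.445), Myh11 (0.195) and Myocd (0.0540). No neighbouring pair in this order overlapped between its libraries. In Day4 it was Tpm1 (60.9), Acta2 (47.0), Tagln (34.0), Cnn2 (32.5), Myl9 (23.0), Tpm2 (14.4), Actg2 (4.27), Cnn1 (3.92), Myh11 (0.226) and Myocd (0.149). Tagln and Cnn2, and also Actg2 and Cnn1, overlapped in Day4. Among all genes with a length, the level of Acta2 went from percentile 66.1 to percentile 92.3, that of Myl9 from 63.0 to 82.6 and that of Actg2 from 33.7 to 53.9, while Myh11 stood at 26.7 and 29.8. In bulk RNA, a change in the number of cells that express a gene and a change in the RNA per cell cannot be told apart.

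Among 20 other genes known from smooth muscle, 10 were DEGs that rose, 5 were DEGs that fell and 5 were not DEGs. The count that rose was 9 in both DESeq2 fits, with filterByExpr and with thinned counts. Of all genes tested, 22.2% were DEGs that rose and 20.6% were DEGs that fell. The median log2 fold change of the 20 genes was 0.75. The largest rise was that of Mylk, the kinase that phosphorylates the regulatory light chain, from 30.2 and 28.7 normalized counts in Undiff to 668.5 and 706 in Day4 (log2 fold change 4.54, adjusted p = 2.5e-12). Mylk shares 333 exon bases with the antisense gene E130310I04Rik and 224 with another, Gm21691. As for Tagln, the strand setting of the gene counts is not spelled out. Pdlim3, a protein of actin anchoring sites, rose by 3.01 on the log2 scale (adjusted p = 6.4e-11) and Itga8, an integrin of smooth muscle and mesenchyme, by 2.62 (adjusted p = 7.1e-12).

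Other genes of that list went down or did not pass. Aoc3, an amine oxidase of the smooth muscle surface, fell by 4.08 on the log2 scale (adjusted p = 5.3e-09), Ldb3, a Z-disc protein also of striated muscle, by 3.54 (adjusted p = 7.7e-11) and Synm, the intermediate filament protein synemin, by 1.93 (adjusted p = 2.2e-09). The structural genes Smtn, Lmod1 and Des, given here outside the rule for named genes because they are often used as markers, had log2 fold changes of 0.39, -0.36 and -0.19 and were not DEGs. Of the 6 genes listed as defining markers of smooth muscle (Myh11, Cnn1, Smtn, Lmod1, Des and Myocd), Myocd alone was a DEG, a count of 1 that was 0 in both DESeq2 fits, against 42.8% of all genes. Their summed level in CPM per kilobase was 20.8 to 21.6 in Undiff and 24.5 to 26.6 in Day4, and none was at 0. Without Smtn the sum was 7.88 to 9.74 in Undiff and 8.30 to 10.5 in Day4, and the states overlapped. The name smooth muscle genes refers to where these genes are known to act, and the libraries were of ESCs and embryoid bodies.

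**Figure D4:**
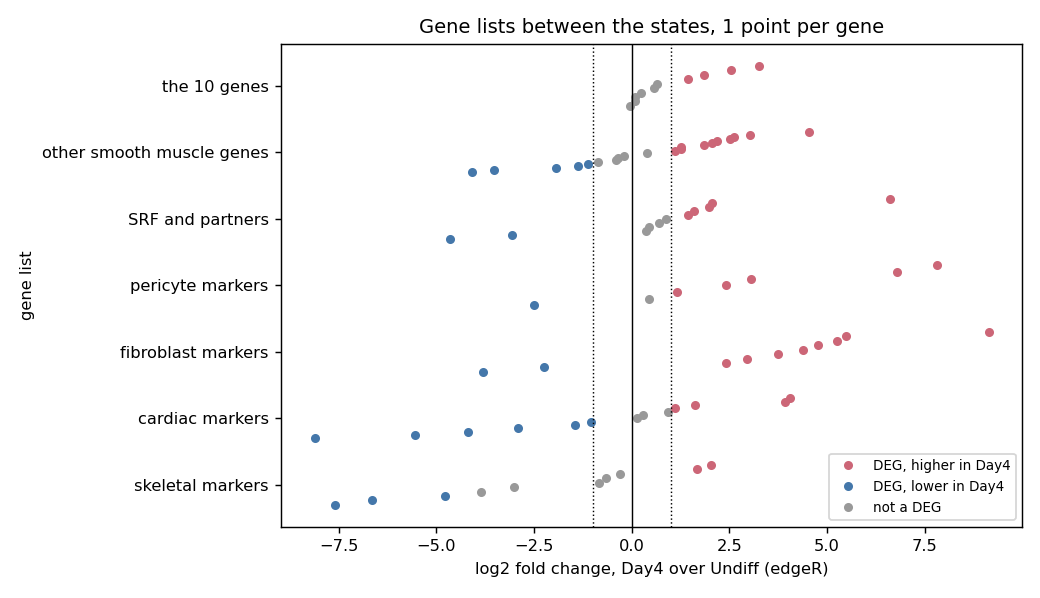
Log2 fold change of Day4 over Undiff for each gene of 7 lists, 1 point per gene, with DEGs that rose in red, DEGs that fell in blue and other genes in grey, dotted lines at -1 and 1, and a vertical offset within a list that has no scale. The 10 genes lie between -0.03 and 3.27 with no DEG on the left, while the list of other smooth muscle genes spans from -4.08 to 4.54.

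Among SRF and its partners, 5 of 11 genes were DEGs that rose, 1 of them the member Myocd, and 2 were DEGs that fell. In both DESeq2 fits 4 rose, as Myocd did not pass. Of all genes tested, 22.2% were DEGs that rose and 20.6% were DEGs that fell. Srf itself had 1953 and 1980 normalized counts in Undiff and 2685 and 2612 in Day4, a log2 fold change of 0.43 (adjusted p = 3.1e-06) that was not a DEG. Mef2c, a MADS-box factor of muscle and other lineages, rose from 13.5 and 16.8 to 1493 and 1470 (log2 fold change 6.61, adjusted p = 4.3e-14). Elk3, an ETS partner of SRF, rose by 2.06 (adjusted p = 3.6e-12) and Mef2a by 1.98 (adjusted p = 3.4e-12). Klf5 and Klf4, Kruppel-like factors that are expressed in ESCs and are also known as regulators of smooth muscle genes, fell by 4.65 (adjusted p = 1.2e-13) and by 3.07 (adjusted p = 3.2e-13) on the log2 scale.

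Markers of other cell types that express some of the members moved as well. Of 10 fibroblast markers, 8 were DEGs that rose and 2 were DEGs that fell, against 22.2% and 20.6% of all genes tested. Their summed level was 215 to 224 in Undiff and 525 to 548 in Day4. The largest fold changes were those of Col3a1 (log2 fold change 9.14), Postn (5.48) and Pdgfra (5.26). The largest additions to the sum were Col3a1, from a mean of 0.323 to 184 CPM per kilobase, and Vim, the intermediate filament protein vimentin of many mesenchymal cells, from 34.5 to 182. Thy1 and Fn1 of the same list fell by 3.80 and 2.26. Fn1 made up most of the Undiff sum, with a mean of 167 CPM per kilobase, and had 34.9 in Day4. Of 7 pericyte markers, 5 were DEGs that rose and 1 was a DEG that fell, with a summed level of 25.1 in both Undiff libraries and of 47.1 to 47.8 in Day4. Rgs5 had the largest rise (log2 fold change 7.80), and Anpep fell by 2.50.

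Striated muscle markers were mixed, where 22.2% of all genes tested were DEGs that rose and 20.6% were DEGs that fell. Of 13 cardiac markers, 4 were DEGs that rose and 6 were DEGs that fell. The count that rose was 3 in both DESeq2 fits, with the replicate block and with thinned counts. The summed level of the cardiac markers was 20.6 to 22.0 in Undiff and 35.2 to 36.6 in Day4, or 19.9 to 21.1 and 22.5 to 22.8 without Tnni1. Tnni1 and Tnnt2, troponins of early heart muscle, rose by 4.05 and 3.92 on the log2 scale, whereas Myh6 fell by 5.55 and Ttn by 4.20, and Myl2 was at 0 counts in both Day4 libraries. Of 10 skeletal markers, 2 were DEGs that rose and 3 were DEGs that fell, with a summed level of 49.7 to 57.1 in Undiff and 6.54 to 6.72 in Day4. That fall lay in Mylpf, the fast skeletal regulatory light chain (log2 fold change -4.77), and without it the sum was 4.53 to 4.57 in Undiff and 4.75 to 4.91 in Day4. The myogenic factors Myf5 and Myf6 and the fusion protein gene Tmem8c were at or under the floor of 3 counts in every library. All 5 pluripotency markers fell. The part of fibroblasts, pericytes or heart muscle cells in the rise of Acta2, Actg2, Myl9 and Myocd was not tested.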

How the data were processed

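TruSeq RNA libraries of R1 ESCs, 2 of Undiff and 2 of Day4, were grouped by their labels. The authors used cutadapt to trim the paired-end reads, mapped them on mm10 by STAR 2.4.2a (version per the labels) and counted uniquely mapped fragments per gene symbol with htseq-count, and the deposited values are these raw counts. Fragments that map to several places were left out by the authors, which lowers genes with close copies. The labels name a poly(A) kit and also a strand-specific ribosomal depletion kit. The no-feature share was 12.1% and 13.2% in Undiff and 7.50% and 7.74% in Day4, of the fragments on genes, no gene or several genes, and these lines stayed out of the tests.

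Counts were tested with edgeR 4.0.16 (TMM, glmQLFit, glmQLFTest) in R 4.3.3. The common dispersion was 0.00134 (biological coefficient of variation 3.66%). The script was tested on simulated data. The methods state that replicates were grown and treated separately. Replicates differed by more than sampling noise (chi-square per degree of freedom 5.71 in Undiff and 3.07 in Day4).

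Lengths, positions and overlaps came from GENCODE vM21 (GRCm38), by symbol, with all 108 genes of the 19 lists matched. The result of 1 of these lists is not reported here. Levels are TMM-scaled CPM divided by exon length in kilobases, with isoforms pooled. Family shares were compared by exact permutation tests.

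The 10 members, the lists and the thresholds were chosen with earlier results of these data known. The thresholds for a DEG are those of the study's methods, where they were applied with DESeq2. Named genes were the members, the genes of their families, up to 3 DEGs of largest log2 fold change per direction and list, and markers at the floor. Alternatives were DESeq2 1.42.0 with and without shrinkage, other scalings, filterByExpr, a replicate block, thinned counts, each library left out, the adjusted p alone, and shares without division by length. The robust and legacy quasi-likelihood fits were added after seeing the data. Floors cover counting error only.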

Additional observations from a re-analysis of the deposited data

How the results depend on the processing

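The number of DEGs among the 10 genes that rose was 4 in every alternative but 3. It was 3 in both DESeq2 fits, where Myocd did not pass, and 6 with the adjusted p alone, where Tpm1 and Cnn1 were added. No member fell as a DEG in any setting. With the replicate block the counts were 4 members and 8515 of all genes, beside 8521 without it, and 67 list genes beside 68. The numbers of the replicates were not shown to pair the samples, as the deviations of samples with the same number from their state means had a correlation of -0.01 over 16472 genes. With the adjusted p alone, 15044 genes passed. Leaving out each library in turn gave 8306 to 8410 DEGs over all genes, 63 to 66 over the lists and 4 among the members.

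Of 130 log2 fold changes of members under the alternatives, 128 kept their call as a DEG or not, and the exceptions were Myocd in the DESeq2 fits, at 1.32 with shrinkage and 1.42 without. Of the same values, 124 stayed on their side of an adjusted p of 0.05. Besides Myocd, Cnn1 no longer passed without Day4 replicate 2 (0.12) or with thinned counts (0.099), while Tagln passed without Day4 replicate 1 (0.0052) and Cnn2 with library totals (0.0097). Of 1265 values of the other list genes, 27 lost their call, among them those of Actc1, Ckm, Fhl2, Kcnmb1, Myl3 and Ryr2, and none reversed. When a library was left out, Acta2 ranged from 2.31 to 2.74, Actg2 from 3.07 to 3.38, Myl9 from 1.72 to 1.92 and Myocd from 1.08 to 1.98. The size of an adjusted p depended strongly on the edgeR fit. For Myl9 it was 2.0e-87 in the legacy fit and 1.8e-04 with thinned counts, and for Acta2 it was 0.0021 in the robust fit.

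Without division by length, the change in share was 0.22 percentage points for Actg2, -3.99 for Cnn2, 4.08 for Tpm1, -1.09 for Tpm2 and 5.45 for Myl9, beside 0.317, -3.52, 1.02, -1.83 and 10.4 with it, as longer genes then weigh more. When a library was left out, the change in share ranged from 2.68 to 3.86 percentage points for Acta2, 0.277 to 0.357 for Actg2, 14.8 to 21.8 for Tagln, -0.107 to 0.303 for Cnn1, -3.83 to -3.21 for Cnn2, 0.613 to 1.43 for Tpm1, -2.01 to -1.65 for Tpm2, 9.79 to 11.0 for Myl9 and -0.0387 to 0.0182 for Myh11.

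With 2 libraries per state, of 1 line and with no Day4 sample without RA, the values describe these cultures. At 6 to 39 counts, Myocd is measured less precisely than the other members.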

Other observations

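The replicates of Day4 differed in one direction over the smooth muscle contractile genes. All 10 had more normalized counts in Day4 replicate 2 than in replicate 1, with a median ratio of 1.17, whereas 50.2% of the 16472 genes averaging 5 or more normalized counts did, with a median ratio of 1.00. Among the 20 other smooth muscle genes, 11 were higher in replicate 2, with a median ratio of 1.01. In Undiff, 2 of the 10 genes were higher in replicate 2, Tagln and Cnn2, with a median ratio of 0.930, and 4 of the 20 other smooth muscle genes were, against 48.0% of all those genes. The pattern was noticed after the values were seen, the genes of a list are not independent of each other, and it was not tested.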
